A study of Mus musculus with 12 samples.

Results

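The genes that make, break down and carry urate were followed in cultured mouse hepatocytes treated with benzbromarone, a drug that lowers blood urate. They are 9 of the 22471 features in each library, taken by gene symbol: Pnp and Xdh, which lead to urate, Uox, Urah and Urad, which degrade it, and the carriers Slc2a9, Slc22a7, Slc17a1 and Slc17a3. The 12 libraries are RNA sequencing of primary hepatocytes from livers of young male C57BL/6J mice, obtained by collagenase perfusion, with 3 libraries in each of 4 groups. The groups are an untreated control, oleic acid (OA) supplied on albumin, benzbromarone (BBR), and BBR together with OA (BBR+OA). OA is a fatty acid with which cultured hepatocytes fill with fat, although GEO's design text calls it a high-fat diet and the sample labels name the source only as liver. No group carried a labelled genetic change, and all were kept in culture, so they model isolated cells and not the liver of a fed or obese animal. The libraries are called biological replicates without saying whether a mouse or a culture dish was the unit, so a p-value measures the spread between these libraries, which may be technical.

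Purines that a cell does not reuse end as urate. Purine nucleoside phosphorylase (Pnp) splits inosine and guanosine into free bases, and xanthine dehydrogenase (Xdh), a molybdenum enzyme, oxidises hypoxanthine to xanthine and xanthine to urate. In mice, unlike in humans, urate is then degraded in liver peroxisomes: urate oxidase (Uox) makes 5-hydroxyisourate, the hydrolase Urah opens its ring, and the decarboxylase Urad yields allantoin. Slc2a9 (GLUT9) carries urate into hepatocytes for this step, Slc22a7 (OAT2) is an organic anion carrier that accepts urate, and Slc17a1 (NPT1) and Slc17a3 (NPT4) are voltage-driven carriers of organic anions, best known as urate exporters of the kidney. BBR lowers urate by blocking its reabsorption in the kidney, mainly at Slc22a12 (URAT1). In these hepatocytes Slc22a12 was listed at 0 except in OA replicate 2, at 0.0542 CPM (counts scaled to a common library size), and a count of 0 allows a level of up to 0.127 to 0.194 CPM depending on the library, for counting error only.

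Coordinates are those of GRCm38 (mm10) in GENCODE, for whole protein-coding genes with their exons and introns. Pnp (ENSMUSG00000021871) lies at chr14:50944517-50963136 on the plus strand, Xdh (ENSMUSG00000024066) at chr17:73883895-73950196 on the minus strand, Uox (ENSMUSG00000028186) at chr3:146570426-146632305 on the plus strand, Urah (ENSMUSG00000025481) at chr7:140835018-140837966 on the plus strand and Urad (ENSMUSG00000075543) at chr5:147314984-147322440 on the minus strand. Slc2a9 (ENSMUSG00000005107) occupies chr5:38349273-38503143 on the minus strand and Slc22a7 (ENSMUSG00000067144) chr17:46432183-46438457 on the minus strand. Slc17a3 (ENSMUSG00000036083, chr13:23839434-23860716) and Slc17a1 (ENSMUSG00000021335, chr13:23867750-23895730) are neighbours on the plus strand, between Slc17a2 and Slc17a4, and the 4 genes together span 108017 bases. Xdh, Urad, Slc2a9, Slc17a1 and Slc17a3 fell both with BBR and with OA, and the promoter windows found for them are shown; Xdh had none. Each runs from 250 bases before to 50 bases after a RefSeq start site (GRCm38.p6), 5′ to 3′ on the strand of the gene, and capitals mark the letters AGGTCA, a hexamer bound by nuclear receptors, or TGACCT where it lies on the opposite strand.
Slc17a3, chr13:23839184-23839483, plus strand: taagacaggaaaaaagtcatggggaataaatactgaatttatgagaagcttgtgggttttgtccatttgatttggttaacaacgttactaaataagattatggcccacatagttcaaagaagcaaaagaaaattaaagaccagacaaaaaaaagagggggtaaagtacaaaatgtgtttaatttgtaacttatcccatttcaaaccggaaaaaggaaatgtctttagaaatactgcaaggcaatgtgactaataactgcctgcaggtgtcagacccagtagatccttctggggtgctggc
Slc17a1 upstream window, chr13:23868768-23869067, plus strand: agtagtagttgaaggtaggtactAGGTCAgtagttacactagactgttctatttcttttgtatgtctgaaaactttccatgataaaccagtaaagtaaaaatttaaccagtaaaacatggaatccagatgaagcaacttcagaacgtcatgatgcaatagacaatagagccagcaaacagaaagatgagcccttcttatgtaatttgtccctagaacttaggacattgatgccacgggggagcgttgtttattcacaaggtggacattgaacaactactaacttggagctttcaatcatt
Slc17a1 downstream window, chr13:23870023-23870322, plus strand: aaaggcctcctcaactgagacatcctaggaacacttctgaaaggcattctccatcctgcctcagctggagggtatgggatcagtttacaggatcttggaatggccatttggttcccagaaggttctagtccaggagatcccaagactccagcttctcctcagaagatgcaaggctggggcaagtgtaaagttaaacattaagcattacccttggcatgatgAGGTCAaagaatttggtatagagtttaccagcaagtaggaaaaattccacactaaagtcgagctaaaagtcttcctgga
Slc2a9, chr5:38483336-38483635, minus strand: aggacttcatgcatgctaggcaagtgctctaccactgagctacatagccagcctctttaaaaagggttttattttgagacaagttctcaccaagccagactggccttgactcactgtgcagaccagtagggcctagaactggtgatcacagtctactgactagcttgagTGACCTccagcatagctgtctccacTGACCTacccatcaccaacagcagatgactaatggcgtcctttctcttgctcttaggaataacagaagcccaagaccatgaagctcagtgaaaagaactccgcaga
Urad, chr5:147322391-147322690, minus strand: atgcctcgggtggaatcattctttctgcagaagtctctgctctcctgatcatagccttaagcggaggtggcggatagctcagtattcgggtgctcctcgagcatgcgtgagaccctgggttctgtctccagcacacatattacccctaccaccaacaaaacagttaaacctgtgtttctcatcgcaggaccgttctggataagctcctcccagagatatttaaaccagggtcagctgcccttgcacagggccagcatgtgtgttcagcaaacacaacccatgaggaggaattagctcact

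RefSeq windows were found for 7 of the 9 genes, 9 windows in all. AGGTCA began at position -227 of the upstream and at -29 of the downstream Slc17a1 window, counted from the start site, and lay on the opposite strand at -81 and -56 of the Slc2a9 window. It was not found in either orientation in the windows of Slc17a3, Urad, Uox, Urah or Pnp. Of all 32851 windows of this length, 16.3% hold AGGTCA on either strand, so a match is common. No window of the 9 held GTTAAT (a core of HNF1 sites, in 7.10% of all windows), TATAAA (13.6%) or AGGTCA repeated after 1 base (0.0396%). The last 30 bases of each window lie in a GENCODE transcript of the gene of that name, except for the upstream Slc17a1 window. For Pnp this is the gene that GENCODE names Pnp. The Pnp window ends before the start of the gene located above by the row's identifier.

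The libraries held 15485508 to 23668379 counts, so that 1 count is worth 0.0423 to 0.0646 CPM, and mitochondrial transcripts took 5.50% to 6.89%. Hepatocyte markers (10 genes, from Alb to Hnf4a) summed to 34148 to 35684 CPM in control, 39810 to 41035 with OA, 34523 to 35982 with BBR and 40953 to 42998 with BBR+OA, and none of them was at 0. Most of that sum was Alb, at 27086 to 28622 CPM in control and 28865 to 30317 CPM with BBR. Of these 10 markers 2 rose and 6 fell with BBR, and 6 rose and 1 fell with OA. Cps1 moved most in both, by -0.86 with BBR and 3.32 with OA in log2. Kupffer cell markers (10 genes) summed to 97.2 to 114.8 CPM in control, 95.7 to 112.8 with OA, 136.4 to 177.6 with BBR and 96.6 to 112.1 with BBR+OA, higher with BBR alone than in any other group. Most of that sum was Cd68, at 66.8 to 88.5 CPM in control and 106 to 149 CPM with BBR. Of the 9 Kupffer markers tested 1 rose with BBR (Cd68, 0.71 in log2) and 1 fell (Cd5l, -0.68). With OA 2 rose and 6 fell. Cholangiocyte markers (8 genes) summed to 608.7 to 736.9 CPM in control, 257.8 to 287.9 with OA, 404.4 to 435.8 with BBR and 213.6 to 253.3 with BBR+OA. Most of that sum was Spp1, at 554 to 678 CPM in control, which fell with BBR and with OA, whereas Sox9, Krt19 and Epcam rose with BBR by 0.61, 0.68 and 0.92 in log2 and Sox9 rose with OA by 0.60. Of the 5 cholangiocyte markers tested 3 rose and 2 fell with BBR, and 1 rose and 1 fell with OA. The untested markers of this list, Krt7, Cftr and Sctr, stayed under 0.2 CPM, and Sctr was at 0 in all libraries. Endothelial markers (10 genes) summed to 71.3 to 77.8 CPM in control, 66.8 to 78.4 with OA, 80.5 to 83.6 with BBR and 73.7 to 78.4 with BBR+OA, highest with BBR alone, where 3 of 10 tested rose (Pecam1, Cdh5 and Kdr) and 0 fell by edgeR. Stellate cell markers summed to 26.3 to 32.7 CPM, and of 7 lymphocyte markers 4 (Cd3e, Cd3g, Ms4a1 and Nkg7) were at 0 throughout. Over all genes tested, 14.5% fell and 13.2% rose with BBR, and 21.5% fell and 21.3% rose with OA, by the test described below. The part of these markers in the results below was not tested, and in bulk RNA fewer cells of a type and less RNA per cell cannot be told apart.

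Levels of different genes were compared per length, as the deposited FPKM (a value divided by transcript length), averaged over the 12 libraries. Uox (88.3 FPKM, range 78.7 to 105) and Pnp (88.0 FPKM, range 72.7 to 102) were the highest, with ranges that overlapped over all libraries. Within libraries, Uox was above Pnp in each one without OA and below it in each one with OA. In control Uox was at 81.5, 92.7 and 105 FPKM and Pnp at 76.4, 79.6 and 74.0 FPKM. With OA alone Uox was at 83.8, 83.4 and 94.9 FPKM and Pnp at 101, 99.4 and 99.5 FPKM. Urah followed at 31.6 FPKM (24.7 to 39.7) and Xdh at 18.7 FPKM (14.6 to 26.5). These ranges met, although Urah was above Xdh within each library. Urad was at 7.75 FPKM (3.82 to 12.1) and Slc2a9 at 3.40 FPKM (2.09 to 4.28), again with touching ranges. The other carriers were lowest and overlapped each other, and the range of Slc17a1 also met that of Slc2a9: Slc22a7 at 1.15 FPKM (0.88 to 1.40), Slc17a1 at 1.07 FPKM (0.28 to 2.43) and Slc17a3 at 0.661 FPKM (0.22 to 1.58). The RNA of these enzymes was thus at a higher level per length than that of these carriers, apart from the touching ranges of Urad and Slc2a9.

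The first question was what BBR did to these genes without OA. Of the 9 genes, 5 fell and none rose: Xdh, Urad, Slc2a9, Slc17a1 and Slc17a3. Lower calls (edgeR quasi-likelihood test, Benjamini-Hochberg adjusted p under 0.05) made up 14.5% and higher calls 13.2% of the 12555 genes tested. The median log2 fold change was -0.44 over the 9 urate genes and -0.00085 over all genes tested. All 9 genes passed the filter on low counts in each comparison. Fold changes below are in log2 with their standard error (SE), from the libraries of the groups named, while levels per library are CPM scaled by TMM (edgeR's trimmed mean factors) over all 12.

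**Figure D1:**
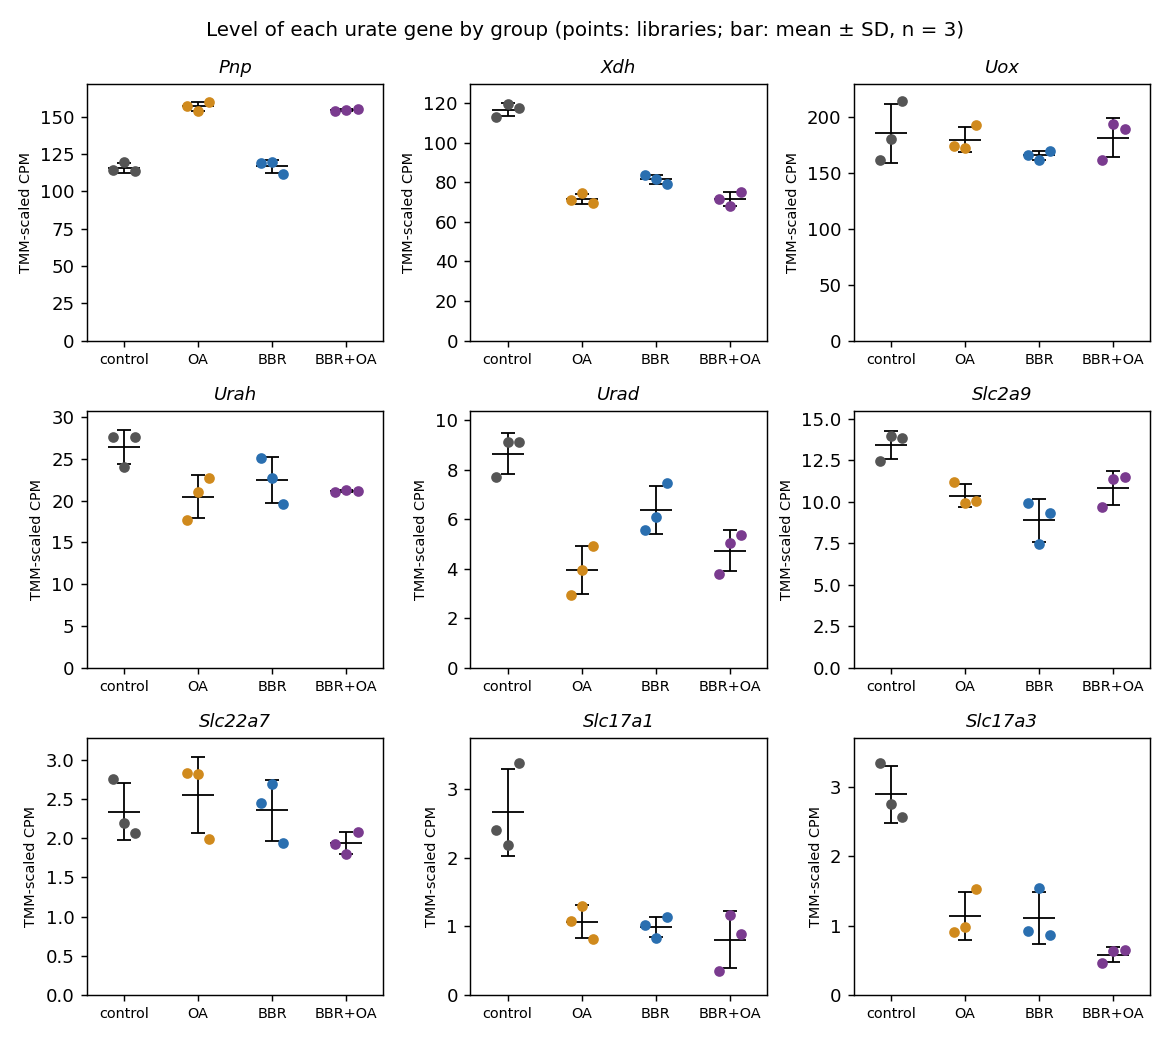
TMM-scaled CPM (vertical axes from 0) of the 9 urate genes in the 4 groups, with a point for each library and bars for the mean and SD of 3 libraries. Slc17a1, Slc17a3, Xdh, Urad and Slc2a9 sit highest in the 3 control libraries, Pnp sits highest in the 6 libraries with OA, and Uox and Slc22a7 overlap among all groups.

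Pnp, the enzyme that feeds purine bases to Xdh, was at 114.0, 119.4 and 113.6 CPM in control and 119.0, 119.4 and 111.8 CPM with BBR. These ranges overlapped, and the log2 difference was 0.021 (SE 0.047, adjusted p = 0.782, edgeR) with a 95% interval from -0.078 to 0.12. With OA Pnp was at 157.2, 153.5 and 159.7 CPM, and with BBR+OA at 153.7, 154.3 and 155.4 CPM. Every library with OA was above every library without it. Pnp rose with OA by 0.44 (SE 0.048, adjusted p = 4.64e-06, edgeR) and from BBR to BBR+OA by 0.40 (SE 0.042, adjusted p = 4.02e-06, edgeR).

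Xdh, the enzyme that forms urate, was at 113.3, 119.6 and 117.4 CPM in control and 83.7, 81.8 and 79.0 CPM with BBR. The groups did not overlap, and the BBR mean was 0.698 of the control mean. This amounted to -0.51 in log2 (SE 0.046, adjusted p = 7.79e-07, edgeR). With OA Xdh was at 70.8, 74.6 and 69.4 CPM and with BBR+OA at 71.6, 68.0 and 75.2 CPM, 2 groups that overlapped and both lay below BBR alone. Xdh thus fell with OA by 0.70 in log2 (SE 0.050, adjusted p = 8.73e-08, edgeR), and fell further from BBR to BBR+OA by 0.19 (SE 0.050, adjusted p = 0.00685, edgeR). Addition of BBR to OA left a log2 difference of -0.0032 with a 95% interval from -0.12 to 0.11, which did not reach the -0.51 seen without OA.

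Uox, which starts urate breakdown, was at 161.8, 180.9 and 214.4 CPM in control and 166.1, 161.8 and 169.5 CPM with BBR. Control varied more than any treated group, the ranges overlapped, and the log2 difference of -0.16 (SE 0.072, adjusted p = 0.125, edgeR) did not pass. OA libraries were at 174.0, 172.9 and 192.7 CPM and BBR+OA libraries at 161.8, 194.2 and 189.5 CPM, so that each treated library lay within the range of the control libraries. Uox did not pass in any of the 5 pairwise comparisons, and its log2 difference of OA and control was -0.042 (adjusted p = 0.707, edgeR). Without control replicate 1 the BBR difference of Uox passed, at -0.24 (adjusted p = 0.0116), and without BBR+OA replicate 1 that of BBR+OA and BBR passed, at 0.21 (adjusted p = 0.00272). Uox overlaps Dnase2b on the opposite strand over 34612 bases, and whether counting used the strand is not given in the sources used here. Dnase2b held 94 to 165 counts per library against 2526 to 5076 for Uox.

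Urah, the next enzyme, was at 27.6, 24.1 and 27.6 CPM in control and 25.1, 22.7 and 19.6 CPM with BBR, which overlapped in 1 library, and its log2 difference of -0.22 (SE 0.087, adjusted p = 0.0683, edgeR) did not pass. With OA it was at 17.6, 21.1 and 22.7 CPM and with BBR+OA at 21.1, 21.3 and 21.2 CPM, all below the lowest control library. Urah fell with OA by 0.36 in log2 (SE 0.092, adjusted p = 0.00546, edgeR). Without control replicate 2 or BBR replicate 1 its difference between BBR and control passed too, at -0.29 and -0.31 (adjusted p = 0.0380 and 0.0163), and so it did without the filter on low counts (adjusted p = 0.0361).

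Urad, which completes the path to allantoin, was at 7.71, 9.13 and 9.12 CPM in control, 5.58, 6.09 and 7.47 CPM with BBR, 2.95, 3.96 and 4.90 CPM with OA and 3.80, 5.02 and 5.36 CPM with BBR+OA. Each treated library was below each control library, and the OA groups lay below BBR alone. Urad fell with OA to 0.455 of control, or by 1.13 in log2 (SE 0.16, adjusted p = 5.74e-05, edgeR). Its fall with BBR, -0.44 (SE 0.13, adjusted p = 0.0188, edgeR), was lost without control replicate 2 or 3 or BBR replicate 1 or 2, at adjusted p from 0.0573 to 0.0885. From BBR to BBR+OA it fell by 0.44 (SE 0.16, adjusted p = 0.0457, edgeR), and this call was lost without BBR replicate 2 or 3 or BBR+OA replicate 1 or 2, at adjusted p from 0.0664 to 0.201, as well as with DESeq2 (adjusted p = 0.0764) and in one fit over all 12 libraries (adjusted p = 0.0524).

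**Figure D2:**
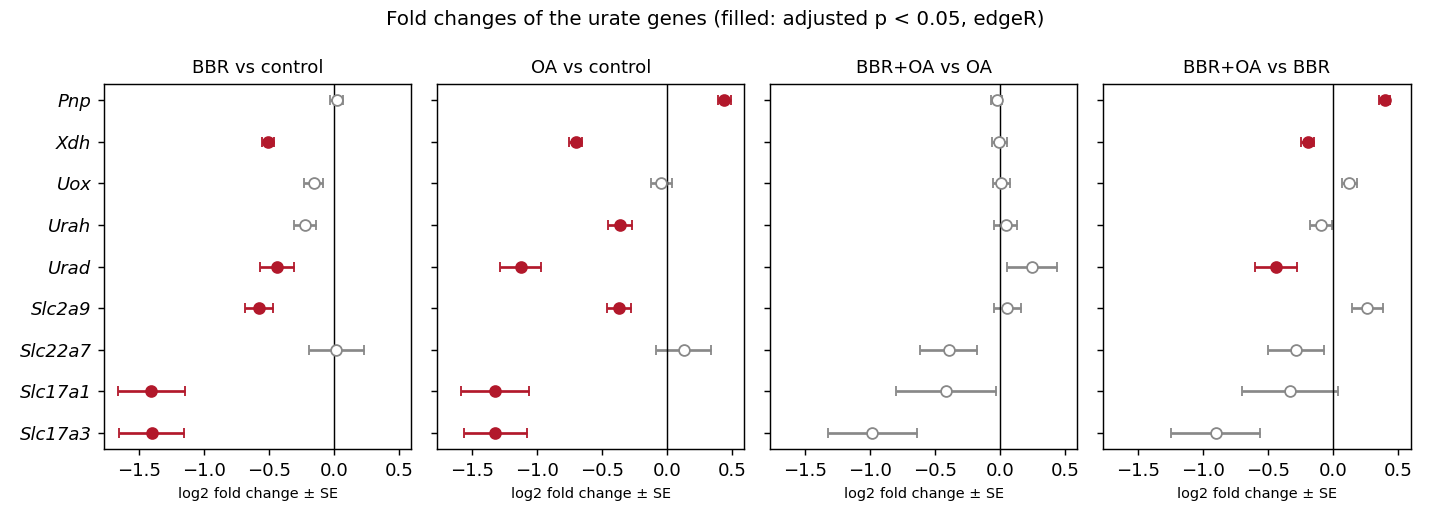
Log2 fold changes with SE (horizontal axis) of the 9 urate genes in 4 comparisons, filled where the adjusted p of edgeR was under 0.05. Open symbols fill the panel of BBR+OA against OA, while Slc17a1 and Slc17a3 have the lowest values with BBR alone and with OA alone, between -1.32 and -1.41.

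Among the carriers, Slc2a9 was at 12.5, 14.0 and 13.9 CPM in control and 9.92, 7.43 and 9.34 CPM with BBR. The groups did not overlap, the BBR mean was 0.662 of control, and its fold change was -0.57 on the log2 scale (SE 0.11, adjusted p = 7.37e-04, edgeR). With OA it was at 11.2, 9.92 and 10.1 CPM and with BBR+OA at 9.67, 11.4 and 11.5 CPM, with means between those of control and BBR, and these groups overlapped each other. Slc2a9 fell with OA by 0.37 in log2 (SE 0.092, adjusted p = 0.00496, edgeR). In FPKM the ratio of group means was smaller with OA, at -0.21 on the log2 scale, and -0.47 with BBR. By FPKM the OA libraries (2.75 to 3.89) overlapped control (3.60 to 4.28), while the BBR libraries (2.09 to 3.39) did not. The ratio of FPKM to CPM differed between libraries for this gene.

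Slc22a7 was at 2.76, 2.19 and 2.07 CPM in control, 2.84, 2.82 and 1.99 CPM with OA, 2.44, 2.69 and 1.93 CPM with BBR and 1.92, 1.80 and 2.08 CPM with BBR+OA. Every pair of groups overlapped, and no comparison passed. The log2 difference of BBR and control was 0.020 with a 95% interval from -0.43 to 0.47. The gene was read with 34 to 55 counts per library.

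Slc17a1 was at 2.40, 2.19 and 3.38 CPM in control, 1.08, 1.30 and 0.817 CPM with OA, 1.01, 0.833 and 1.13 CPM with BBR and 0.355, 1.16 and 0.893 CPM with BBR+OA. Control was apart from all treated libraries, and the 3 treated groups overlapped. Slc17a1 fell with BBR by 1.41 in log2 (SE 0.26, adjusted p = 6.12e-04, edgeR), to 0.373 of control, and with OA by 1.32 (SE 0.26, adjusted p = 9.05e-04, edgeR), to 0.401 of control. In FPKM the fall with BBR was smaller, at -1.04, and that with OA was -1.42.

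Slc17a3 was at 3.36, 2.76 and 2.58 CPM in control, 0.908, 0.975 and 1.53 CPM with OA, 0.922, 1.54 and 0.859 CPM with BBR and 0.456, 0.635 and 0.655 CPM with BBR+OA. Control was again apart, and BBR+OA lay below both single treatments in every library. Slc17a3 fell with BBR by 1.40 (SE 0.25, adjusted p = 5.51e-04, edgeR) and with OA by 1.32 (SE 0.24, adjusted p = 5.68e-04, edgeR). Between BBR+OA and OA the log2 difference was -0.98 (SE 0.34) at an unadjusted p of 0.0120 from edgeR, which did not survive adjustment (adjusted p = 0.123). From BBR to BBR+OA it was -0.90 (SE 0.34, adjusted p = 0.0513, edgeR), which passed with upper quartile scaling (adjusted p = 0.0423) and in one fit over all 12 libraries (adjusted p = 0.0460). Slc17a1 and Slc17a3 were read with 7 to 22 and 9 to 12 counts in the BBR+OA libraries, so these values are the least precise of the set, and the transcripts of the 2 genes share no stretch of 25 bases.

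The other Slc17 genes of the cluster, which were on the list of further urate and organic anion carriers, gave values of the same direction. Slc17a4, which lies 159 bases from Slc17a1 on the minus strand and carries organic anions in the intestine, was at 11.8, 11.9 and 15.4 CPM in control and 3.74, 2.95 and 3.97 CPM with BBR, and it fell by 1.86 in log2 (SE 0.14, adjusted p = 1.33e-07, edgeR). With OA it fell by 1.17 (SE 0.20, adjusted p = 3.04e-04). Slc17a2, at the other end of the cluster, was at 8.32, 8.47 and 8.74 CPM in control and 3.203 to 4.458 CPM with BBR, and it fell by 1.08 (SE 0.13, adjusted p = 1.71e-05) with BBR and by 1.21 (SE 0.14, adjusted p = 7.52e-06) with OA. In both comparisons all 4 neighbours thus fell, and in the 3 control libraries each was above its level in the treated libraries.

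**Figure D3:**
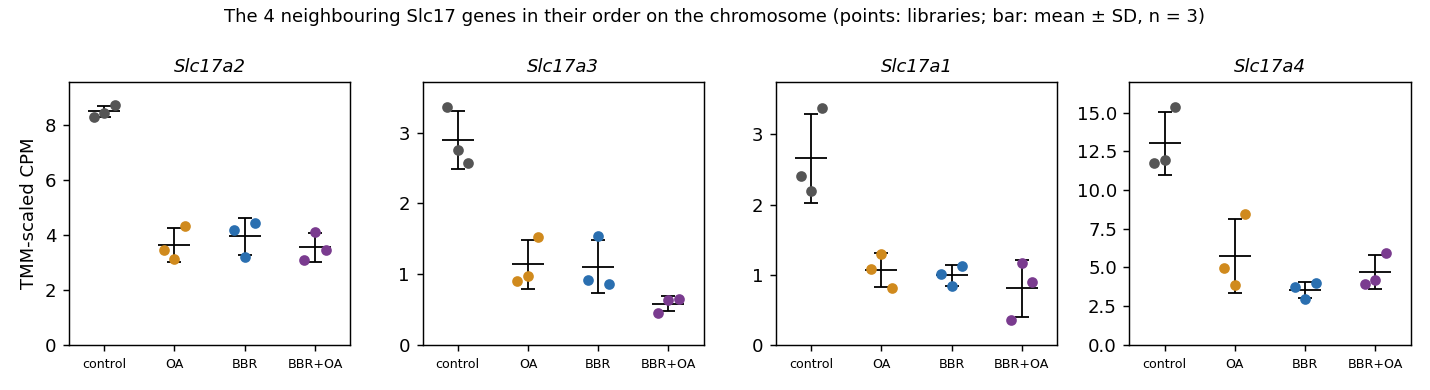
TMM-scaled CPM (vertical axes from 0, own scale per gene) of Slc17a2, Slc17a3, Slc17a1 and Slc17a4, in the order in which they lie on chromosome 13, with a point per library and the mean and SD of 3 libraries. Control libraries lie above all treated libraries in each panel.

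The effect of OA was measured against the same control libraries as that of BBR, so the 2 comparisons are not independent. With OA, 6 of the 9 genes fell (Xdh, Urah, Urad, Slc2a9, Slc17a1 and Slc17a3) and 1, Pnp, rose, where 21.5% of the 12418 genes tested were called lower and 21.3% higher. The median log2 fold change of the 9 was -0.37, against -0.0060 over all genes. With upper quartile scaling, chosen after the data were seen, the calls over all genes split into 2077 higher and 3216 lower in place of 2643 and 2668, and the 7 calls of urate genes stayed. In BBR+OA against control, which shares those control libraries too, 6 of the 9 genes fell and Pnp rose by 0.41 (adjusted p = 6.41e-07, edgeR). There 22.2% of genes were called lower and 21.6% higher, and the medians were -0.32 for the 9 genes and -0.0074 for all. Slc17a3 fell by 2.31 (SE 0.27, adjusted p = 2.56e-06, edgeR), Slc17a1 had -1.74 (SE 0.32, adjusted p = 3.23e-04), Urad fell by 0.89 (adjusted p = 6.60e-05) Urah by 0.32 (adjusted p = 0.00139) and Xdh by 0.71 (adjusted p = 4.36e-09). The call of Slc2a9, -0.32 (adjusted p = 0.0119), was lost without BBR+OA replicate 1 (-0.24, adjusted p = 0.0699).

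Next was the question of what BBR did in cells that also received OA. Of the 9 genes 0 were called in BBR+OA against OA by edgeR, with 1 at an unadjusted p under 0.05, and DESeq2 called 0 as well. Lower calls made up 2.63% and higher calls 1.95% of the 12278 genes tested. The median log2 difference was -0.0032 over the 9 genes and -0.00031 over all genes. The 95% intervals were narrow for Pnp (-0.12 to 0.070), Xdh (-0.12 to 0.11), Uox (-0.13 to 0.15) and Slc2a9 (-0.16 to 0.28), and wide for Slc17a1 (-1.23 to 0.40), Slc17a3 (-1.71 to -0.25) and Slc22a7 (-0.86 to 0.067). The intervals of Slc17a3 and Slc17a1 both overlap those that BBR gave without OA (-1.94 to -0.87 and -1.95 to -0.86).

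Whether the BBR effect differed with and without OA was tested by the interaction term over all 12 libraries. Of the 9 genes 2 were called, Xdh at 0.52 (SE 0.069, adjusted p = 9.68e-05, edgeR) and Slc2a9 at 0.64 (SE 0.15, adjusted p = 0.00836, edgeR), both less lowered by BBR in the presence of OA. Over all 12742 genes 6.87% were called with a positive term and 5.31% with a negative one. Urad had a term of 0.69 (SE 0.24, adjusted p = 0.0698) and Slc17a1 one of 1.0 (SE 0.48, adjusted p = 0.198), neither of which passed, Slc17a3 one of 0.43 (SE 0.44, adjusted p = 0.598), and Pnp had a term of -0.034 with a 95% interval from -0.16 to 0.091. Leaving out OA replicate 3, BBR replicate 3 or BBR+OA replicate 1 brought Urad past the threshold, at 0.89, 0.83 and 0.82 (adjusted p = 0.0219, 0.0423 and 0.0404), as did testing without the filter on low counts (adjusted p = 0.0325). Among the neighbours of the Slc17 pair, Slc17a4 (1.55, SE 0.32, adjusted p = 0.00360) and Slc17a2 (1.05, SE 0.22, adjusted p = 0.00407) had terms of the same sign that passed.

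In the last comparison, BBR+OA against BBR, 2 of the 9 genes fell (Xdh and Urad) and 1 rose (Pnp), with 18.8% of 12416 genes called lower and 20.1% higher. Upper quartile scaling gave 1976 higher and 2870 lower calls over all genes in place of 2496 and 2330. The median was -0.19 for the urate genes and -0.0061 for all genes, and Slc2a9 had a log2 difference of 0.27 (SE 0.12, adjusted p = 0.0953, edgeR), which passed without BBR+OA replicate 1, at 0.35 (adjusted p = 0.0498).

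The level of Uox relative to Xdh shows the balance of the enzyme that degrades urate and the enzyme that forms it at the RNA level. The ratio of their FPKM was 3.23, 3.503 and 4.10 in control, 4.28, 4.53 and 4.84 with BBR, 5.46, 5.16 and 6.38 with OA, and 5.15, 6.56 and 6.09 with BBR+OA. The means were 3.61 ± 0.446 (SD, n = 3), 4.55 ± 0.281, 5.67 ± 0.638 and 5.93 ± 0.718. Control libraries had the lowest ratios, BBR came next without overlap, and the 2 groups with OA overlapped each other above both. This ratio was a description with no test, and since Uox overlapped between all groups, the ratio ran opposite to the level of Xdh.

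**Figure D4:**
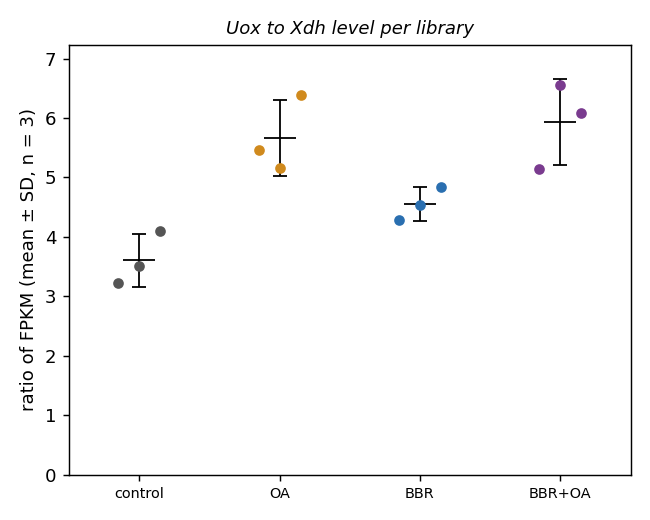
Ratio of Uox to Xdh FPKM in each library (vertical axis from 0) by group, with the mean and SD of 3 libraries. Control spans 3.23 to 4.10, BBR 4.28 to 4.84, and the groups with OA lie from 5.15 to 6.56.

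The counts for genes around the urate path are to be read against the shares of all genes tested. With BBR 14.5% were called lower and 13.2% higher, and with OA 21.5% and 21.3%. For BBR+OA against OA the shares were 2.63% lower and 1.95% higher, and for BBR+OA against BBR 18.8% and 20.1%. Of 9 tested genes of the molybdenum cofactor and of oxidases that use it, as Xdh does, 5 fell with BBR and 0 rose, with a median of -0.33. Aox3, a liver aldehyde oxidase, fell by 0.92 (SE 0.089, adjusted p = 1.46e-06, edgeR) and was at 14.6, 15.6 and 15.3 CPM in control and 7.88 to 8.02 CPM with BBR. With OA 4 of the 9 fell, among them Aox3 by 1.60 (SE 0.11, adjusted p = 7.64e-08), Aox1 by 0.81 (SE 0.070, adjusted p = 5.77e-07) and sulfite oxidase (Suox) by 0.87 (SE 0.11, adjusted p = 1.81e-05). Suox was the only 1 of 8 tested to rise when BBR was added to OA, by 0.55 (SE 0.11, adjusted p = 0.0138). From BBR to BBR+OA 2 rose and 2 fell of 8, with Aox1 at -0.54 (adjusted p = 7.78e-05).

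Of 7 tested further carriers (of 17 listed), 4 fell with BBR and 1 rose, and 6 fell with OA. Beside Slc17a2 and Slc17a4, Abcg2, an exporter of urate in kidney and intestine, was at 83.4, 79.0 and 83.4 CPM in control and 57.5, 51.1 and 57.5 CPM with BBR, and it fell by 0.56 (SE 0.054, adjusted p = 1.64e-06, edgeR). Pdzk1, a scaffold for membrane carriers, rose with BBR by 0.65 (SE 0.13, adjusted p = 0.00157) and fell with OA by 0.62 (SE 0.14, adjusted p = 0.00270). Abcc4, an exporter of organic anions, fell with OA by 0.81 (SE 0.082, adjusted p = 2.48e-06). None of the 7 was called in BBR+OA against OA by edgeR, with the log2 differences of Abcg2 at -0.074 and of Pdzk1 at 0.35. From BBR to BBR+OA 1 of 7 rose and 3 fell, namely Pdzk1 by 0.91, Abcc4 by 0.84 and Abcc2, an exporter at the bile canaliculus, by 0.57.

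Upstream of urate, 1 of 11 tested genes of nucleotide breakdown rose with BBR and 2 fell, and 2 rose with OA. Guanine deaminase (Gda), which makes xanthine from guanine, fell with BBR by 0.97 (SE 0.20, adjusted p = 0.00197, edgeR), from 3.06, 2.76 and 2.87 CPM to 1.52, 1.28 and 1.56 CPM, and rose from BBR to BBR+OA by 0.86 (SE 0.23, adjusted p = 0.00874). AMP deaminase 3 (Ampd3) rose with OA by 1.22 (SE 0.072, adjusted p = 1.44e-08) and from BBR to BBR+OA by 0.89 (SE 0.073, adjusted p = 3.43e-07). In that comparison 2 of 11 rose and 1 fell, and 1 of 11 fell when BBR was added to OA.

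Of 6 tested salvage genes, adenosine kinase (Adk), which returns adenosine to AMP, was the only call with BBR, with a fall of 0.68 (SE 0.063, adjusted p = 9.50e-07, edgeR) from 84.4, 81.3 and 91.6 CPM to 57.4, 47.9 and 53.9 CPM. It was at 89.6, 94.5 and 94.7 CPM with BBR+OA, a rise of 0.80 (SE 0.059, adjusted p = 1.34e-07) over BBR alone. With OA 2 of 6 rose and 1 fell, the mitochondrial deoxyguanosine kinase Dguok, by 0.53 (SE 0.11, adjusted p = 0.00157). From BBR to BBR+OA 3 of 6 rose, and 0 were called when BBR was added to OA by edgeR.

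Of 15 genes of new purine synthesis, 8 fell with BBR and 1 rose, with a median of -0.15. The largest were Adssl1, an adenylosuccinate synthase, at -0.56 (SE 0.12, adjusted p = 0.00197, edgeR) and IMP dehydrogenase 1 (Impdh1) at 0.59 (SE 0.058, adjusted p = 1.86e-06). With OA 7 rose and 3 fell, with a median of 0.15 and Adssl1 at -1.57 (SE 0.13, adjusted p = 5.05e-07). From BBR to BBR+OA 12 rose and 1 fell, with Gart, an enzyme of several steps of the path, at 0.51 (SE 0.045, adjusted p = 7.31e-07) and Adssl1 at -0.93 (SE 0.14, adjusted p = 1.36e-04). In BBR+OA against OA 1 of 15 was called, Impdh1, which rose by 0.48.

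Of 4 tested nucleoside carriers, the equilibrative carrier Slc29a1 fell with BBR, by 0.73 (SE 0.067, adjusted p = 8.26e-07, edgeR), and Slc43a3, a carrier of purine bases, rose with OA, by 0.90 (SE 0.16, adjusted p = 4.15e-04), and from BBR to BBR+OA, by 0.68 (SE 0.20, adjusted p = 0.0133). In the last comparison Slc29a1 rose too, so that 2 of 4 rose, and in BBR+OA against OA 1 of 5 was called, Slc29a1, which fell by 0.29 (SE 0.063, adjusted p = 0.0166).

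For the 3 urate genes with the widest range of group means, the genes with the nearest pattern were sought by the root mean square difference of centred log2 CPM over the 12 libraries, among genes of at least 5 CPM on average. Slc17a3 was nearest to Rgs16 (0.330), Gcgr, the glucagon receptor (0.345), and Cd1d1 (0.363), against a spread of its own of 0.809 about its mean. Rgs16 had means of 56.0 CPM in control, 19.5 with OA, 16.9 with BBR and 13.3 with BBR+OA. Slc17a1 was nearest to Gstm3 (0.374), Gas2 (0.375) and Acaca, acetyl-CoA carboxylase (0.375), of a spread of 0.739. Urad was nearest to Hdac11 (0.181), Crot, a peroxisomal acyl carrier enzyme (0.182), and Hspb6 (0.184), of a spread of 0.480, and Crot had means of 207 CPM in control, 109 with OA, 151 with BBR and 130 with BBR+OA. These likenesses were over all 12 libraries of 4 groups and carry no test.

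The identifier of the Pnp row is named Gm49342 in GENCODE, which places on the same 18620 bases a gene it names Pnp. The copy Pnp2 overlaps Gm49342 over 7145 bases. Of the 25-base words of Pnp2, 42.4% were found in the transcripts of the gene that GENCODE names Pnp. Of the words of that gene, 16.9% were found in Pnp2, and those of Gm49342 were not compared. Pnp was the only one of the 9 genes with fractional counts in the files, and Pnp2 held 2.13 to 12.03 counts per library. What part of the Pnp reads could belong to either was not measured. Urah overlaps Gm45785 on the opposite strand, which held 0 to 2.56 counts.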

How the data were processed

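RNA from 12 libraries of mouse hepatocytes (control, OA, BBR and BBR+OA, 3 each, grouped by sample title) was enriched for polyadenylated transcripts and sequenced on an Illumina instrument, per the labels. For each of 22471 features the authors deposited an estimated count and an FPKM value, which is scaled by length and depth. The build is mm10 in the submitters' processing notes, and the aligner, counter and use of strand are not given in the sources used here. Of 21911 Ensembl identifiers 21848 were found in GENCODE.

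Estimated counts were rounded to whole numbers and tested two-sided with edgeR 4.0.16 in R 4.3.3 (filterByExpr, TMM, glmQLFit, glmQLFTest, Benjamini-Hochberg over all genes tested, adjusted p under 0.05), each pair of groups on its own 6 libraries and the interaction on all 12. The script was tested on simulated data. FPKM served for levels between genes, the Uox to Xdh ratio and, untested, group ratios of Slc2a9 and Slc17a1. Libraries held 15485508 to 23668379 counts, and intervals cover the fit or counting error only. Alternatives were RLE and upper quartile scaling, no filter, DESeq2 1.42.0, a replicate block, one fit over all libraries, and leaving out each library.

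All 9 genes are named. From the other lists, genes with adjusted p under 0.05 and a log2 fold change of at least 0.5 in size were eligible, at most 4 per list and comparison, along with the 3 genes nearest in pattern to each of the 3 widest-ranging members. Slc22a12, Pnp2, Dnase2b, Gm45785 and the cell type markers were named outside that rule, after their values were seen. The members, lists and tests were chosen with earlier results of these data known.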

Additional observations from a re-analysis of the deposited data

Results flagged for a closer look

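For 2 genes the effect of BBR differed between cells with and without OA by the interaction term itself. Xdh had a term of 0.52 on the log2 scale (SE 0.069, adjusted p = 9.68e-05, edgeR), with a BBR effect of -0.51 without OA and -0.0032 with it. Xdh was lower with BBR in 3 of 3 libraries without OA and overlapped with OA, and its call held in 17 of 17 alternatives. Slc2a9 had a term of 0.64 (SE 0.15, adjusted p = 0.00836, edgeR), with a BBR effect of -0.57 without OA and 0.059 with it. This call held in 17 of 17 alternatives as well, with values from 0.54 to 0.73, all of them fits of counts. In FPKM, which was not tested, the log2 ratio of group means for BBR was -0.47 without OA and -0.051 with it.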

How the results depend on the processing

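Fold changes of the 9 genes were recomputed under 693 combinations of gene, comparison and alternative: 649 kept their direction and side of the threshold, 11 lost their call, 17 gained one and 16 changed sign. The sign changes were all in values that were not called and arose on leaving out a library. The calls of Xdh, Slc2a9, Slc17a1 and Slc17a3 for BBR against control, and all 7 for OA against control, held in 12 of 12 alternatives.

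Libraries of replicate 1 were weakly alike across groups in their deviations from the group means. Of 18 pairs with the same number, 4 correlated above 0.1 (range -0.027 to 0.16), all 4 between libraries of replicate 1. Of 36 pairs with different numbers 0 did so (range -0.15 to 0.091). Same-number pairs of replicates 2 and 3 ran from -0.027 to 0.091, no higher than pairs with different numbers. The main tests did not use the replicate number. With the replicate block, Uox and Urah were also called for BBR against control. For BBR+OA against BBR 5 were called (adding Uox at 0.12 and Slc17a3 at -0.92), and for the interaction 3 (adding Urad at 0.70, adjusted p = 0.00880, edgeR). The block also raised calls over all genes for BBR+OA against OA, to 1333 from 240 higher and 323 lower. Whether the added calls of the 9 genes go beyond a general rise in calls was not tested. For BBR+OA against BBR, DESeq2 did not call Urad.

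Leaving out each library in turn moved the count of all genes called between 216 and 632 for BBR+OA against OA and between 1027 and 1679 for the interaction. The ranges of values that changed sign were -0.075 to 0.15 for Slc22a7 in BBR against control, and in BBR+OA against OA -0.037 to 0.034 for Xdh, -0.037 to 0.090 for Uox and -0.051 to 0.13 for Urah. For Uox they were -0.13 to 0.074 in OA against control and -0.12 to 0.080 in BBR+OA against control, and in BBR+OA against BBR they were -0.18 to 0.0024 for Urah and -0.72 to 0.047 for Slc17a1. The Uox to Xdh ratio depends on the unit: from CPM it was 1.59 in control, 2.52 with OA, 2.04 with BBR and 2.55 with BBR+OA, in the same order. Genes with few counts limit the precision, above all Slc17a1, Slc17a3 and Slc22a7.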
